A study of Homo sapiens with 16 samples.

Results

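WM164 is a human melanoma cell line, profiled here after overexpression of either GFP, a fluorescent protein, or MAFG, a small MAF transcription factor. The regions described are 2341 peaks of trimethylation of histone H3 at lysine 4 (H3K4me3) that carried no MITF peak and no MAFG peak in any library. They are called factor-free below, and were chosen by the deposited peak positions of all 14 libraries, that is, by measured values. They were taken from the 13579 H3K4me3 peaks of GFP-overexpressing cells on chromosomes 1 to 22 and X. Of these, 11900 were under 4000 bp wide, and 9185 of the 11900 also overlapped an H3K4me3 peak of MAFG-overexpressing cells. The remaining 6844 of the 9185 shared peaks were overlapped by at least 1 of 12 anti-MITF or anti-MAFG peak lists and are called factor-marked. The factor-free share was 25.5%. That share, and everything that follows directly from the absence of a factor peak, is fixed by the way the regions were chosen.

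The peaks come from CUT&RUN, in which an antibody tethers a nuclease to its target in permeabilised cells and the released DNA is sequenced. About 250000 cells entered each sample. GFP cells and MAFG cells were each profiled with anti-H3K4me3 (1 library), anti-MAFG (3 libraries) and anti-MITF (3 libraries). An IgG sample of each line was not analysed here. H3K4me3 therefore had no replicate in either line, and no test between the lines was possible for it. The factor libraries are numbered replicates that nothing in the sources ties to separate cultures, so p-values over them measure only the spread between these libraries. Whether either line is 1 clone, and what vector drives the transgenes, is not given in the sources used here. The melanocyte lineage genes MITF, SOX10, PMEL and EDNRB had an H3K4me3 peak at their start in GFP cells, and MLANA, TYR, DCT, TYRP1, PAX3 and KIT had none. Of these 10 genes only MITF had a shared peak under the width limit, and it was factor-marked; the peaks of SOX10, PMEL and EDNRB were 7377 to 12731 bp wide.

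H3K4me3 is deposited by SET1 and MLL methyltransferase complexes on nucleosomes next to transcription start sites, and it is strongest at active promoters rich in CpG dinucleotides. MITF is a basic helix-loop-helix leucine zipper factor of the melanocyte lineage that binds E-box sequences as a dimer. MAFG is a small MAF protein without a transactivation domain of its own. It binds MAF recognition elements or antioxidant response elements, often as a partner of NRF2 or BACH1.

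Promoter sequences show examples of the DNA under these peaks. The sequences are the 250 bases upstream of a RefSeq start of build GRCh38.p14, 5′ to 3′ on the strand of the gene, and none touches an annotated gene of that table. SRRT, CDC37, RPL29 and ZNF555 lay under factor-free peaks. SRRT was among the 10 factor-free peaks with the highest fold enrichment, and RPL29 stands for a gene family described further on. ZNF555, CDC37 and CDK4 were chosen after their values were seen. ZNF555 is a zinc finger gene with repeated CCAAT boxes, whereas ZNF629, the zinc finger gene with the highest fold enrichment, held 0 in its stretch. CDC37 holds a cyclic AMP response element, and CDK4, under a factor-marked peak, is the contrast with E-boxes. CDK4 is not typical of its class. Among the promoter windows described further on, 11.1% of the factor-marked and 6.61% of the factor-free held an E-box. Capitals mark every match on either strand to the GC box (GGGCGG, bound by SP and KLF factors), the CCAAT box (CCAAT, bound by NF-Y), the ETS site (CCGGAAG), the YY1 site (AAGATGGC), the cyclic AMP response element (CRE, TGACGTCA) and the E-box (CACGTG).

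SRRT: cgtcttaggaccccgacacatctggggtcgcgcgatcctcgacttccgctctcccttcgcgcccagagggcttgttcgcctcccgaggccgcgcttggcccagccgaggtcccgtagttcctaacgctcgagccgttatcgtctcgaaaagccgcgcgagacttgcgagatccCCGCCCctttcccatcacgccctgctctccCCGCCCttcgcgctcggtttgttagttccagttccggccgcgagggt
CDC37: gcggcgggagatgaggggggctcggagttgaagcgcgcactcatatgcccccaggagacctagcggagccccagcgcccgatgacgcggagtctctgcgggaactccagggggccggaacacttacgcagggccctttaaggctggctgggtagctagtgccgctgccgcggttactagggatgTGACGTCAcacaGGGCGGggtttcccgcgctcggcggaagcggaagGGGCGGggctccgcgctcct
RPL29: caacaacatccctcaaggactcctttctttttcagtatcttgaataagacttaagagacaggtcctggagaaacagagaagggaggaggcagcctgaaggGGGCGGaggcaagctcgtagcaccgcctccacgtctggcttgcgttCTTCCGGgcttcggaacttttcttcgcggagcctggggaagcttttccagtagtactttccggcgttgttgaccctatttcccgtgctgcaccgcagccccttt
ZNF555: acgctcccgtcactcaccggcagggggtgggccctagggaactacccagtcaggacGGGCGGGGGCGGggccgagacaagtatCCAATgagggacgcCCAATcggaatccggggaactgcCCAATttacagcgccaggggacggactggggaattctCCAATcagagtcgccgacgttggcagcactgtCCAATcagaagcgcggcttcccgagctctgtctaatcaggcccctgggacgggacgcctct
CDK4: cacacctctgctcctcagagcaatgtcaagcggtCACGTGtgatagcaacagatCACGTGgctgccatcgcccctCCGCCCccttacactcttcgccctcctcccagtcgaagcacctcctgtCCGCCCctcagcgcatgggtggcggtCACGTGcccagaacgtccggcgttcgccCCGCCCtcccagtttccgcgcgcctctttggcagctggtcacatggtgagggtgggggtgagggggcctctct

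The SRRT stretch lies at chr7:100874853-100875102 on the plus strand and held 2 GC boxes. CDC37 lies at chr19:10403543-10403792 on the minus strand, with 2 GC boxes and 1 CRE. RPL29 lies at chr3:51995896-51996145 on the minus strand, with 1 GC box and 1 ETS site. ZNF555 lies at chr19:2841225-2841474 on the plus strand and held 5 CCAAT boxes beside 2 GC boxes. None of these 4 factor-free stretches held an E-box, an M-box core (CATGTG, a further hexamer bound by MITF), an AP-1 site (TGAGTCA, the core of 1 type of MAF element) or an antioxidant response element (TGACNNNGC). CDK4, which encodes a G1 cyclin-dependent kinase, lies at chr12:57752311-57752560 on the minus strand and held 3 E-boxes. Its H3K4me3 peak was overlapped by all 3 anti-MITF libraries of GFP cells, all 3 of MAFG cells and no anti-MAFG library. A match is a description of the letters and does not show that a factor binds there.

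The strongest factor-free peaks are described first. Fold enrichment is the authors' value at the peak summit over their background, and it ranks peaks within a list only. RPS3, a ribosomal protein of the small subunit, led the factor-free peaks in both lines. Its peak at chr11:75399490-75403061, 3572 bp wide, had a fold enrichment of 121.1 in GFP cells and 74.3 in MAFG cells. DVL1, a cytoplasmic transducer of Wnt signals, had 119.9 in GFP cells and 40.4 in MAFG cells at chr1:1346970-1349171. ANP32E, a chaperone that removes the histone variant H2A.Z, had 115.6 and 47.0, in the same order of lines, at chr1:150233083-150237030. These 3 peaks were among the top percent of the GFP-cell list and, in MAFG cells, among its top 4 percent by rank (percentiles 99.9, 96.0 and 98.4).

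KIF22, a chromokinesin of the mitotic spindle, had a fold enrichment of 114.3 in GFP cells and 38.6 in MAFG cells. PITPNA, a phosphatidylinositol transfer protein, had 112.3 and 26.7, the lowest MAFG-cell rank of the leading 10 (percentile 82.1). ANAPC11, a RING subunit of the anaphase-promoting complex, shared its peak with ALYREF, an mRNA export factor, and had 111.8 and 54.9. The peak assigned to HSPA1B, an inducible HSP70 chaperone, had 109.2 and 50.9, but its summit lay 2114 bp from the gene's start. HSPA1B also has a near-identical neighbouring copy, HSPA1A, so that reads there may not be assigned with certainty. The group closed with 3 peaks at gene starts. THAP4 and the autophagy protease gene ATG4B shared a peak with 107.2 and 43.0. SRRT, which acts in microRNA processing and nuclear RNA export, had 104.0 and 56.8, and NOL9, a polynucleotide kinase of ribosomal RNA processing, had 102.8 and 34.6. By mean rank over both H3K4me3 lists the best 5 were RPS3, ANAPC11, SRRT, HSPA1B and ANP32E.

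Factor-marked peaks reached higher values. The 5 strongest of them included RPS15 with a fold enrichment of 166.8, SNRPB with 162.8 and HGS with 153.4 in GFP cells. RPS15, another ribosomal protein gene, was overlapped by 1 factor library only, and the peak at SNRPB, a spliceosome core protein, by 4. Of the factor-free peaks, 118 (5.04%) lay at or above percentile 90 of the GFP-cell list, against 599 factor-marked peaks (8.75%). Below percentile 10 lay 68 factor-free peaks (2.90%) and 70 factor-marked peaks (1.02%).

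Factor-free peaks were narrower than factor-marked ones. Their median width was 1855 bp (quartiles 1339 and 2495 bp), against 2421.5 bp (1809 and 3028 bp). The narrowest was 316 bp and the widest 3997 bp. Width rose with the number of factor libraries that overlapped a peak, from a median of 2166 bp with 1 library to 2343 bp with 2 or 3, 2552 bp with 4 to 6 and 2742 bp with 7 to 12. A wider region can meet a factor peak more easily, so width is tied to the rule, and the peaks of 1 library are no replicates. These are descriptions without a test.

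The same is seen when the 9185 shared peaks are cut into quintiles. The factor-free share was 43.8% in the narrowest quintile (316 to 1525 bp), 30.4% in the second, 22.6% in the middle, 18.2% in the fourth and 12.4% in the widest (3070 bp or more). By fold enrichment in GFP cells the share fell from 37.0% in the lowest quintile through 28.4%, 24.5% and 20.4% to 17.2% in the highest. Within quintiles of fold enrichment, factor-free peaks remained the narrower class in 5 of 5, with median differences between -359 and -255 bp. Within width quintiles the share moved less with fold. In the middle width quintile it lay between 20.4% and 25.9% over the 5 fold quintiles, and in the narrowest between 46.8% at the lowest and 33.3% at the highest fold, the latter over 24 peaks.

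**Figure D1:**
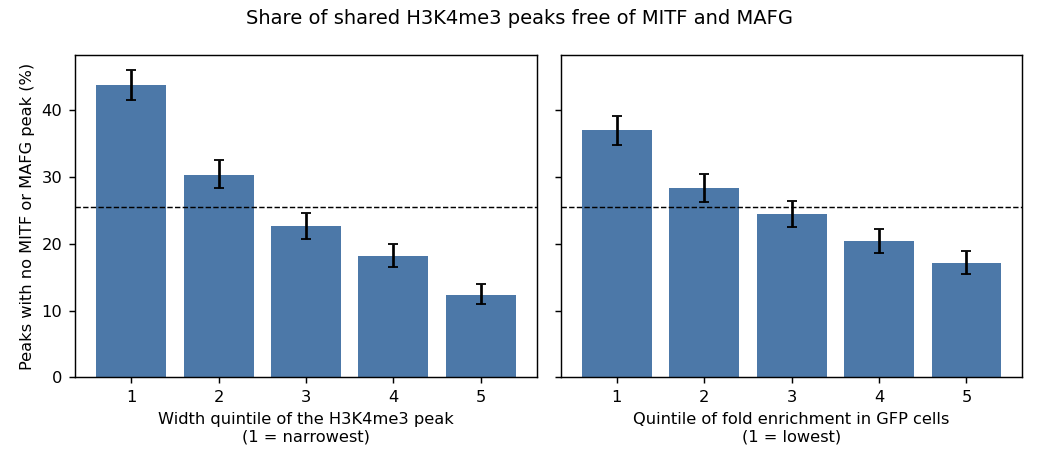
Share of shared H3K4me3 peaks with no MITF or MAFG peak (%), by quintile of peak width (left) and of the authors' fold enrichment in GFP cells (right), with 95% Wilson intervals that cover counting error only; the dashed line is the 25.5% over all 9185 peaks. The share falls from 43.8% to 12.4% with width and from 37.0% to 17.2% with fold enrichment.

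The widest factor-free peaks were at HEXIM1 (3997 bp), an inhibitor of the elongation factor P-TEFb, STK11 (3950 bp), the kinase LKB1, ANP32E (3948 bp), MTA2 (3937 bp), a subunit of the NuRD complex, and the non-coding RNA LOC124904249 (3950 bp). Just outside the width limit, with no factor peak either, were CDT1 (4005 bp), which licenses replication origins, RHOA (4006 bp) and RAB35-AS1 (4022 bp). From 3900 bp to the limit, 11 of 146 shared peaks (7.53%) had no factor peak, and from 4000 bp to under 4100 bp 11 of 119 (9.24%) had none. The narrowest at a gene start were LINC02739 (316 bp), LOC124901620 (323 bp), TMEM191C (330 bp), CCNYL1 (332 bp) and SLC2A10 (346 bp). Their fold enrichment in GFP cells was low, between 3.50 at CCNYL1 and 6.38 at TMEM191C. LOC124901620 and CCNYL1 were wider in MAFG cells, with peaks of 1662 and 2368 bp.

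The factor-free peaks also ranked lower, and this depended on their width. In GFP cells their median fold enrichment was 26.2 (quartiles 15.95 and 40.6), against 33.6 (21.5 and 49.7) for factor-marked peaks, which is a median percentile of 47.0 against 57.9 among all GFP-cell peaks. In MAFG cells the medians were 13.8 and 15.1, at percentiles 44.2 and 49.2. Within quintiles of width the difference in GFP cells was between -2.25 and -0.155 percentile points. In MAFG cells the direction reversed, and factor-free peaks ranked above factor-marked ones in 5 of 5 width quintiles, by 3.91, 9.46, 9.62, 4.41 and 4.19 points from the narrowest quintile to the widest. The quintiles were cut by GFP-cell width for both lines, and MAFG-cell width was not matched. H3K4me3 had 1 library per line, so this difference in direction between the lines was not tested.

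**Figure D2:**
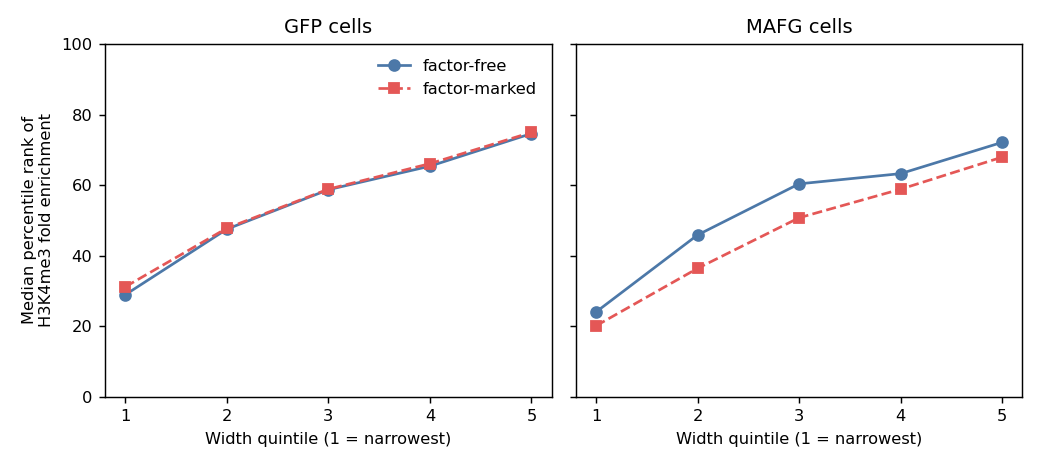
Median percentile rank of the authors' H3K4me3 fold enrichment in GFP cells (left) and MAFG cells (right), for factor-free (circles) and factor-marked peaks (squares). Quintiles are of GFP-cell peak width in both panels, and each line of cells is 1 library. The classes lie together in GFP cells, while in MAFG cells the factor-free medians are higher in 5 of 5 quintiles.

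Between the 2 H3K4me3 libraries the peaks differed in shape in a similar way in both classes. With 1 library per line and unknown depth, a difference between the lines cannot be told apart from one between the libraries. The MAFG-cell peak was the narrower one at 2139 factor-free peaks (91.4%) and at 94.9% of factor-marked peaks. The median ratio of MAFG-cell to GFP-cell width was 0.763 and 0.773. More than 1 MAFG-cell peak covered 69 factor-free peaks (2.95%) and 273 factor-marked peaks (3.99%). Summits of the 2 lines lay a median of 75 bp apart at factor-free peaks and 78 bp apart at factor-marked peaks. The shift of the summit thus stayed small against the median width in both.

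Most factor-free peaks were promoter peaks. The summit lay within 1000 bp of a gene start at 2058 of them (87.9%, 95% Wilson interval 86.5% to 89.2%) and at 5972 factor-marked peaks (87.3%, 86.4% to 88.0%). The intervals, which cover counting error only, overlap. Among the narrowest peaks the shares were further apart, 81.5% of factor-free against 73.3% of factor-marked peaks. When a start had to lie inside the peak itself, the order turned, with 77.6% of factor-free against 86.0% of factor-marked peaks. Where the strand of the nearest gene was known (1728 and 5032 peaks at a start), 89.9% of factor-free summits lay downstream of the start, a median of 291 bp over all of them, against 88.5% and 295 bp. Both classes thus had their summit on the side of the gene body.

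Promoters with starts on both strands were less common among factor-free peaks, 328 (14.3%) against 1409 (21.4%), with chromosome 8 left out and starts of unknown strand not counted. Within width quintiles the shares came close to each other, for example 4.81% against 5.53% in the narrowest and 34.4% against 36.1% in the widest. Of the peaks at a start, 8.60% of the factor-free and 10.4% of the factor-marked were nearest to a long non-coding RNA gene. Only 146 factor-free peaks (6.24%) lay over 5000 bp from any start, against 509 (7.44%).

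Gene families differed widely in how often their promoter was factor-free. Over all protein-coding genes with a shared peak at the start, 24.9% (2087 of 8387) had only factor-free peaks there, and over all long non-coding RNA genes 20.9% (380 of 1814). Genes of 1 cluster can share a peak, and reads of near-identical copies, as in the histone and zinc finger families, may not be placed with certainty. The families are name patterns chosen with earlier results of these data known, and no test was made on them. Intervals are 95% Wilson intervals over genes and cover counting error only.

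Cytosolic ribosomal protein genes, which encode the proteins of the 40S and 60S subunits, had the highest share among families of over 20 genes with a shared peak. Of 43 such genes, 26 (60.5%, 45.6% to 73.6%) were factor-free. Their peaks were wide and strong: all shared peaks in the same width quintiles gave a factor-free share of 16.4%. The 26 factor-free ones had fold enrichments in GFP cells of 17.6 at the lowest, 61.9 at the median and 121.1 at the highest, and 11.3, 27.1 and 74.3 in MAFG cells. After RPS3 came RPL29, with 98.6 and 24.3 for GFP and MAFG cells, RPL7A with 93.2 and 40.0, RPS16 with 92.2 and 30.2, RPL31 with 86.5 and 35.3 and RPL23 with 84.9 and 21.9. A further 34 ribosomal protein genes had only peaks of 4000 bp or more, and 15 of those 34 wide peaks had no factor peak, against 94 of 1679 (5.60%) wide peaks in all. When every factor list was cut to as many peaks as the shortest list holds, the excess of ribosomal protein genes over protein-coding genes fell from 35.6 to 9.62 percentage points. In that setting 7629 of the 9185 shared peaks were factor-free, so the raised background left less room for any excess.

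Replication-dependent histone genes, which are transcribed in S phase from clusters on chromosomes 1 and 6, were factor-free at 11 of 21 genes with a shared peak (52.4%, 32.4% to 71.7%). Unlike the ribosomal protein peaks these were weak. Their fold enrichment in GFP cells was 7.0 at the lowest, 13.1 at the median and 52.5 at the highest, and in MAFG cells 3.77, 4.80 and 13.8. H2AC18 led with 52.5 and 11.5 for GFP and MAFG cells, followed by H4C9 with 32.2 and 4.45 and by H4C12 with 18.5 and 4.80. H4C11 had the higher value in MAFG cells, with 8.38 and 13.8, but these values rank peaks within a list only, so no change between the lines is read from them. The gene H2BC12 had a factor-marked peak at its start beside the factor-free one.

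Zinc finger genes were the largest of the protein-coding families listed. They encode mostly KRAB-type repressors, which silence transposable elements through TRIM28, and many sit in clusters on chromosome 19. Of 288 genes with a shared peak, 142 (49.3%, 43.6% to 55.1%) were factor-free. All shared peaks of the same width quintiles gave 30.1%, against 49.8% of the 291 zinc finger peaks. Fold enrichment at the factor-free ones was 3.03 at the lowest, 26.9 at the median and 69.1 at the highest in GFP cells. ZNF629 had 69.1 in GFP cells and 15.7 in MAFG cells, ZNF655 had 68.6 and 57.1, ZNF550 had 67.6 and 18.0, ZNF574 had 65.1 and 19.9 and ZNF555 had 56.0 and 21.1. ZNF550, on chromosome 19, had no factor peak of any library within 269736 bp.

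The zinc finger share depended on chromosome 19. Counted over peaks with a zinc finger gene as the nearest start, 86 of 120 on that chromosome (71.7%, 63.0% to 79.0%) were factor-free, against 272 of 556 other peaks of the chromosome (48.9%, 44.8% to 53.1%). On the other chromosomes 44 of 143 zinc finger peaks (30.8%, 23.8% to 38.8%) were factor-free, against 1939 of 8366 other peaks (23.2%, 22.3% to 24.1%). Without chromosome 19 the excess of zinc finger genes over protein-coding genes fell from 24.4 to 8.72 percentage points. With equal peak numbers it fell to 6.53 points, but there too the raised background left less room for an excess.

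Other families of basic cell function lay nearer to the background of 24.9%. Factor-free were 10 of 24 DNA replication and repair genes (41.7%, 24.5% to 61.2%), 21 of 64 mitochondrial ribosomal protein genes (32.8%, 22.6% to 45.0%), 22 of 68 respiratory chain genes (32.4%, 22.4% to 44.2%) and 9 of 32 proteasome subunit genes (28.1%, 15.6% to 45.4%). Each of these intervals holds the background, so none of the 4 was distinguishable from all protein-coding genes at this number of genes. Beside shared peaks of the same width quintiles, DNA replication and repair peaks (40.0%, 23.4% to 59.3%, against 22.1%) and respiratory chain peaks (31.9%, 22.1% to 43.6%, against 21.9%) had intervals that began just above the matched share. MRPS7 had the highest factor-free value of the mitochondrial ribosome, 99.0 and 38.0 for GFP and MAFG cells. NDUFV1, a subunit of respiratory complex I, had 59.95 and 28.2, and PSMD12, a lid subunit of the proteasome, had 57.4 and 35.8.

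Several other families had lower shares. Developmental transcription factor genes were factor-free at 6 of 38 (15.8%, 7.44% to 30.4%), among them SIX4, HOXB4, HOXA13, FOXO4 and DLX6. Solute carrier genes gave 30 of 146 (20.5%, 14.8% to 27.8%). Antisense and divergent RNA genes gave 133 of 754 (17.6%, 15.1% to 20.5%) and long intergenic RNA genes 22 of 108 (20.4%), beside the 20.9% of all long non-coding RNA genes. Of these 4 families, the antisense and divergent RNA genes were the only one whose interval lay below its background. Among small nuclear and nucleolar RNA genes 13 of 34 (38.2%, 23.9% to 55.0%) were factor-free, but some of these lie within ribosomal protein genes, as SNORD15A does in the peak of RPS3. Transfer RNA genes, added after the data were seen, gave 29 of 112 (25.9%).

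Most known MAF or NRF2 targets had a shared peak under the width limit, but few known MITF targets had one. Over all protein-coding genes the share with such a peak was 42.0%. Of 10 known MAF or NRF2 target genes, 7 had a shared peak under the width limit, and 6 of the 7 were factor-marked, beside 6216 of 8387 protein-coding genes with factor-marked peaks only. The factor-free share of the 7 has an interval of 2.57% to 51.3%, which holds the background of 24.9%. Of 10 known MITF targets, 2 had such a peak. BCL2, an inhibitor of apoptosis, was factor-free, with a fold enrichment of 22.1 and 17.9 for GFP and MAFG cells, and its nearest factor peak lay 2480 bp away. RAB27A, which acts in melanosome transport, was overlapped by 4 libraries. The start of MITF itself was overlapped by 9.

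**Figure D3:**
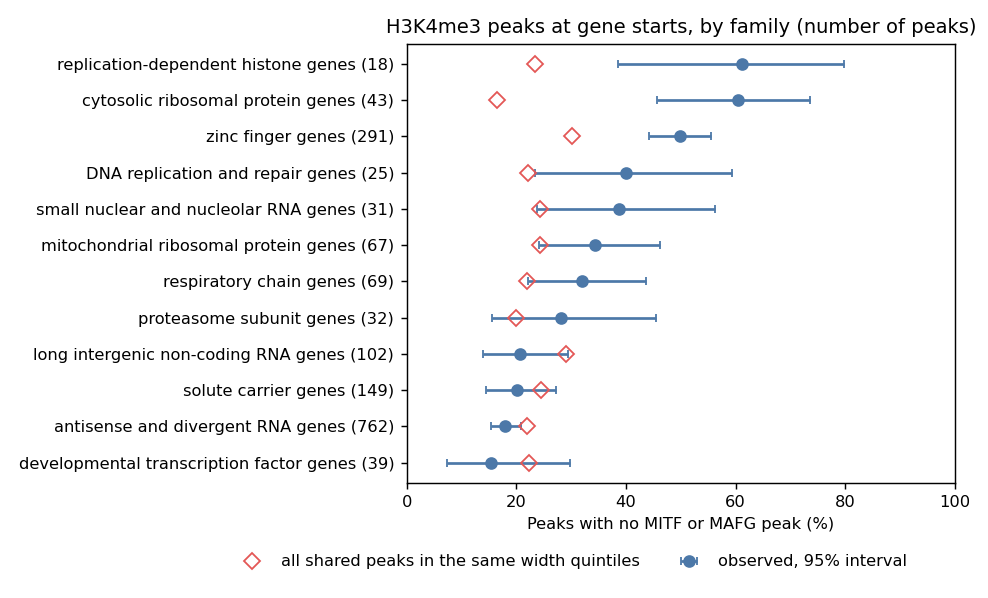
Share of H3K4me3 peaks at gene starts with no MITF or MAFG peak (%), for families with at least 10 shared peaks; circles with 95% Wilson intervals are the observed shares, and diamonds the share among all shared peaks in the same width quintiles. Histone, ribosomal protein and zinc finger peaks lie furthest to the right of their diamonds.

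The factor-free share differed between chromosomes. It was 53.0% on chromosome 19, 44.6% on X, 41.7% on 9, 37.6% on 18 and 35.7% on 16, and lowest on chromosomes 2 (14.2%), 13 (13.5%) and 5 (11.2%). The density of factor peaks away from H3K4me3 was low on the chromosomes with the highest shares, but the order was not the same throughout. GFP-cell factor libraries held a mean of 1.01 such peaks per Mb of gene-bearing span on chromosome 19 and 1.12 on X, against 2.53 on chromosome 9, 2.80 on 18 and 2.62 on 16, and 5.40 on chromosome 5, 6.08 on 2 and 4.03 on 13. Chromosome 22 combined a density of 3.38 with a factor-free share of 18.0%. Chromosomes 3, 8 and 20 had the highest densities, from 6.47 to 6.55, with shares of 20.7%, 16.2% and 23.1%. Median width varied little beside this, from 2007.5 bp on chromosome 19 to 2481 bp on chromosome 8. Median fold enrichment in GFP cells varied more, from 19.8 on X to 43.4 on chromosome 22, and was 31.8 on chromosome 19. The parts of factor peak density and of fold enrichment in the factor-free share were not tested.

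**Figure D4:**
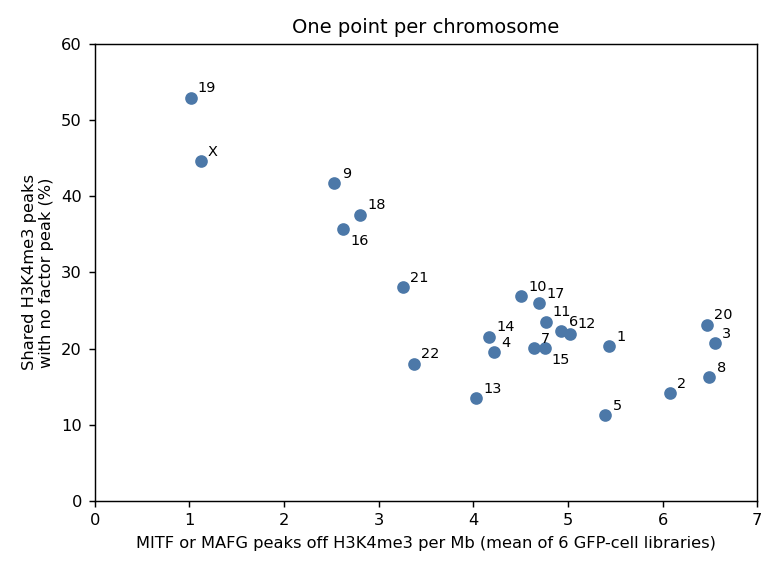
Share of shared H3K4me3 peaks with no factor peak (%) against the number of MITF or MAFG peaks off H3K4me3 per Mb, the mean of the 6 GFP-cell factor libraries, with 1 point per chromosome labelled by its name. Chromosomes 19 and X combine the fewest such peaks per Mb with the highest factor-free shares, 53.0% and 44.6%.

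How far factor-free peaks lay from any factor peak varied over several orders of magnitude. The gap to the nearest peak of any of the 12 libraries had a median of 21171 bp (quartiles 7997 and 49451 bp). It was within 1000 bp at 136 peaks (5.81%) and over 50000 bp at 581 (24.8%), and 1914 (81.8%) had no factor peak within 5000 bp. The closest were CLTCL1 and NRG2, each 16 bp from a factor peak, and ZNF275 at 68 bp. The most isolated lay at or nearest to the non-coding RNA genes LOC105379450, LOC101927615, GLIDR and PSLNR and to LOC107987020, on chromosomes 9, 21 and 22, with gaps from 960981 to 1438500 bp. Whether reads can be placed with certainty around these peaks was not examined, so their gaps may not measure the distance to a bound site. Of the 10 strongest factor-free peaks, DVL1 had a factor peak 398 bp away, PITPNA one at 774 bp and THAP4 none within 26296 bp.

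Factor peaks beside the H3K4me3 peak were counted next. They come from the same 12 lists that defined the classes, so these values are a description and no p is given. For each library the share of H3K4me3 peaks with a factor peak within 5000 bp, but not on the peak itself, was taken. In the anti-MAFG libraries of GFP cells this was 6.92%, 6.54% and 3.97% of factor-free peaks and 11.8%, 10.2% and 6.24% of factor-marked peaks, in the order of replicates 1 to 3. In the anti-MITF libraries of GFP cells it was 9.14%, 9.61% and 9.53% against 12.2%, 12.3% and 12.7%. In MAFG cells it was 0.470%, 0.470% and 0.726% against 1.11%, 0.891% and 1.59% with anti-MAFG, and 0.769%, 0.812% and 1.03% against 1.88%, 1.42% and 1.56% with anti-MITF. Factor-free peaks were the lower class in 12 of 12 libraries. The mean difference was -1.99 ± 1.49 percentage points (SD, n = 12 libraries). Taken within chromosomes, it was -1.31 points. A site called on the H3K4me3 peak in 1 library and just beside it in another can count for factor-marked peaks only. When neighbours that overlapped any library's factor peak on a shared H3K4me3 peak were left out, the difference was -1.42 ± 1.26 points (SD, n = 12), again lower in 12 of 12. The 12 libraries come from 2 lines and 2 antibodies and are compared on the same H3K4me3 peaks, so they are not fully independent.

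The surroundings of factor-free peaks also differed between the lines, with the number of peaks called. With anti-MAFG, the share of factor-free peaks that had a neighbouring factor peak was 5.81% ± 1.60 (SD, n = 3) in GFP cells. It was 0.555% ± 0.148 (SD, n = 3) in MAFG cells, lower by -5.25 points in a two-sided exact permutation test (p = 0.1). With anti-MITF it was 9.43% ± 0.250 (SD, n = 3) in GFP cells. The MAFG-cell share was 0.869% ± 0.137 (SD, n = 3), which differs by -8.56 points (p = 0.1 in the same exact test). The groups did not overlap, and 0.1 is the smallest p that 3 libraries against 3 allow. The share was 10.5-fold lower with anti-MAFG and 10.9-fold lower with anti-MITF, while the lists themselves were 9.92-fold and 8.45-fold shorter in MAFG cells. The part of list length in these differences was not tested. The same lists also chose the factor-free peaks, so no difference between the lines is read from these 2 tests.

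**Figure D5:**
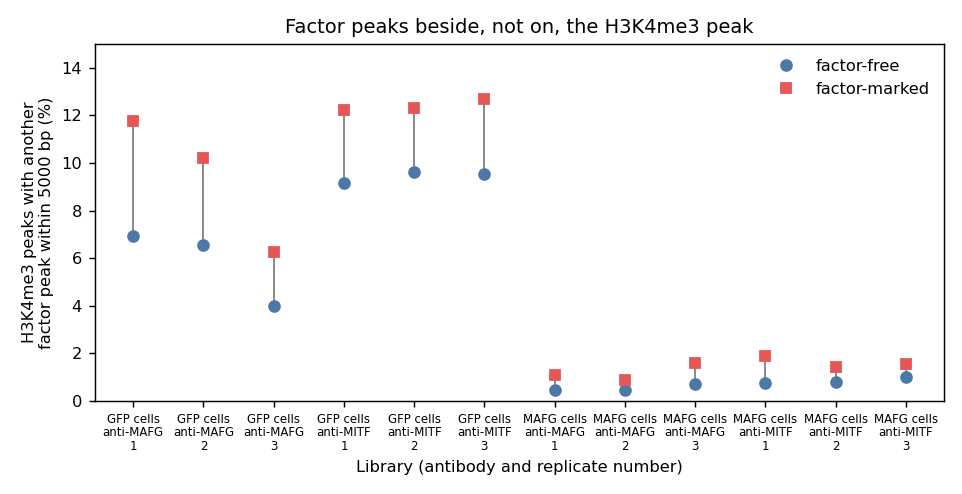
Share of H3K4me3 peaks with a factor peak within 5000 bp but not on the peak (%), for each of the 12 factor libraries; circles are the 2341 factor-free and squares the 6844 factor-marked peaks. The circle lies below the square in 12 of 12 libraries, and the MAFG-cell libraries lie at 1.03% or lower for factor-free peaks.

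The factor-marked peaks were set apart mostly by libraries of GFP cells. Those lists were also the longer ones, with 14879 to 26221 peaks against 1836 to 2818 in MAFG cells. How much list length contributes to this split was not tested. Of the 6844 factor-marked peaks, 5703 (83.3%) were overlapped by GFP-cell libraries only, 17 by MAFG-cell libraries only and 1124 in both lines. Anti-MITF alone accounted for 2301, anti-MAFG alone for 655 and both antibodies for 3888. A single library made 1209 peaks factor-marked, in 855 cases an anti-MITF library and in 339 an anti-MAFG library of GFP cells. Leaving out any 1 of the 12 libraries gave between 2341 and 2646 factor-free peaks.

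Promoter sequence was compared over windows of 300 bases around a start (250 upstream and 50 downstream) that lay wholly inside a peak, 1 per peak. There were 1285 distinct windows for factor-free and 4584 for factor-marked peaks, beside 34683 in the RefSeq table, where a gene can have several. Base composition hardly differed between the classes. Median GC content was 67.7% and 67.0%, against 58.7% over the table, and the median ratio of observed to expected CpG was 0.866 and 0.862, against 0.579. Both classes had the base composition of CpG island promoters.

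The E-box was the motif with the largest relative gap among those tied to MITF. It occurred in 85 factor-free windows (6.61%, 95% Wilson interval 5.38% to 8.11%) and in 511 factor-marked windows (11.1%, 10.3% to 12.1%), beside 7.22% of the table. At a GC content of 60% to 70% the shares were 6.29% and 11.7%. Among factor-marked windows the share was 15.05% where only anti-MITF libraries overlapped, 10.1% with both antibodies, 6.03% where a single library did and 2.98% where only anti-MAFG did. The factor-free share was thus close to that of peaks marked by 1 library and above that of peaks marked by anti-MAFG only, whose interval reached 5.13%. The M-box core occurred in 3.81% and 5.98%, and both lay below the 11.1% of the table.

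Elements of MAF proteins were compared in the same way. The antioxidant response element occurred in 14.2% of factor-free and 15.6% of factor-marked windows, beside 13.4% of the table. The shorter MAF element core (TGCTGA) occurred in 9.34% and 11.9%, against 17.3%, and the AP-1 site in 1.87% and 2.60%, against 4.94%. The TGCTGA core occurred in 9.73% of windows overlapped by anti-MITF libraries only and in 12.5% of those with both antibodies. Where only anti-MAFG libraries overlapped, the TGCTGA core occurred in 16.1% (12.9% to 20.0%), above the interval of factor-free windows (7.87% to 11.1%). The AP-1 site occurred there in 3.97% (2.46% to 6.35%) and the antioxidant response element in 14.6%. The factor-free windows held more CREs (5.14% against 3.01%, and 1.85% of the table) and more ETS sites (25.8% against 21.9%, and 10.2%). They held fewer CCAAT boxes (31.4% against 36.2%, and 34.6%). The CCAAT share was 32.4% where only anti-MITF libraries overlapped and 33.2% where a single library did. It was 37.9% with both antibodies and 39.5% with anti-MAFG only. At a GC content of 60% to 70% the CCAAT intervals overlapped slightly, 29.8% to 37.9% for factor-free and 37.6% to 42.0% for factor-marked windows. The CRE and ETS shares were not particular to factor-free windows. Where only anti-MAFG libraries overlapped they were 4.96% and 25.3%, and where a single library did, 3.93% and 28.2%. At a GC content of 60% to 70% the intervals of both classes overlapped. They were 4.03% to 8.04% against 2.92% to 4.61% for the CRE, and 26.0% to 33.8% against 24.2% to 28.1% for the ETS site. The GC box occurred in 75.6% of both and 45.0% of the table, but at a GC content of 60% to 70% in 70.3% (66.2% to 74.0%) of factor-free and 77.1% (75.2% to 79.0%) of factor-marked windows. The YY1 site (6.69% and 5.91%, and 2.89%), the NRF1 core (CGCATGCG, 4.90% and 3.93%, and 2.004%), the CTCF core (AGGGGGC, 21.4% and 20.0%, and 14.3%) and the TATA box (TATAAA, 3.04% and 3.38%, and 11.6%) differed little between the classes. All motifs were searched on both strands, and matches of different motifs can overlap.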

How the data were processed

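CUT&RUN libraries were made with a CUTANA kit and sequenced, per the labels' protocols. The authors deposited 1 peak list per library, without pooling. Each deposited peak has a fold enrichment (a linear ratio over background) as well as −log10 p and −log10 q, the latter at least 2.0002. Per the submitters' processing notes, tools included cutadapt 1.8.1, Bowtie2 2.4.1, MACS2 2.1.1.20160309, deepTools and ChIPseeker 1.32.1, and the build was GRCh38/hg38. The control and calling settings are not given in the sources used here. The lists hold no read counts, so depth is unknown.

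Overlap meant at least 1 bp. Gene starts came from RefSeq GRCh38.p14, with a gene at the start when the summit lay within 1000 bp. For genes without an entry in the promoter table, which include all of chromosome 8, the strand was not known and either gene end served. Percentile ranks are within a list. Groups follow the labels. Exact permutation tests over libraries were run in Python 3.11.15 (numpy 2.4.6, pandas 2.3.3, scipy 1.17.1; figures in matplotlib 3.10.9). Overlap and neighbour counts were tested on simulated data (11900 peaks): 200 of 200 planted overlaps and 200 of 200 planted neighbours were found. Same-group libraries shared 46.0% to 71.9% of peaks over 12 pairs, so none was present more than once within its group. Libraries of different groups were not compared in this way. The members, families, motifs and lists were chosen with earlier results of these data known.

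Named peaks were the 10 with the highest fold enrichment, the 5 widest, the 5 narrowest at a start, the 5 farthest from and the 3 nearest to a factor peak, the 5 best by mean rank, up to 6 genes a family by fold enrichment and the 5 strongest factor-marked peaks, of which 2 on chromosome 8 are not described. Of the sequences, only that of SRRT follows this rule for the leading 10; RPL29 follows from the family rule, and ZNF555, CDC37 and CDK4 were chosen after values were seen. Alternatives covered factor peak strength and number, libraries, width, overlap and window. Some named genes are not reported here.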

Additional observations from a re-analysis of the deposited data

Results flagged for a closer look

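The gap between factor-marked and factor-free H3K4me3 peaks in having another factor peak within 5000 bp was smaller in MAFG-cell libraries, in percentage points. Factor-free peaks were lower by a mean difference of -3.28 percentage points in the 6 libraries of GFP cells and of -0.698 in the 6 of MAFG cells. The MAFG-cell gap minus the GFP-cell gap was 2.58 points (p = 0.005 in an exact permutation test within antibody, the least possible here). That test cannot decide on a difference between the lines, because every GFP-cell list was longer than every MAFG-cell list. On the scale of ratios the order turned: factor-marked peaks had 1.62 times (anti-MAFG) and 1.32 times (anti-MITF) the share of factor-free peaks in GFP cells, and 2.16 and 1.87 times in MAFG cells. A gap in percentage points shrinks with shorter lists, and the same lists defined the classes, so no difference between the lines is read from it. The lists also held fewer peaks in MAFG cells, between 1836 and 2818 against 14879 to 26221.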

How the results depend on the processing

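The number of factor-free peaks was 1326 with a width under 2000 bp and 3501 with factor peaks of −log10 q of at least 5. It was 3908 when a factor peak had to be present in at least 2 of 3 libraries of a group. With anti-MAFG libraries only it was 4642, and with equal peak numbers 7629. In all of these settings but the first, fewer factor peaks enter by construction. The width difference of -566.5 bp became -478 with factor peaks of −log10 q of at least 5, -500 with 2 of 3 libraries, and -359, -328, -294, -349 and -255 within fold quintiles. The GFP-cell rank difference of -10.9 points became -8.91, -8.86 and, within width quintiles, -2.25, -0.278, -0.155, -0.718 and -0.350. The MAFG-cell rank difference of -4.95 became -1.997, -2.65, -8.31 by −log10 q, and reversed within quintiles of GFP-cell width to 3.91, 9.46, 9.62, 4.41 and 4.19. The start share difference of 0.652 points was 8.21 and 4.31 in width quintiles 1 and 2, and reversed to -1.32 in quintile 5 and to -8.40 when the peak had to overlap the start. The E-box difference of -4.53 points was -6.28 with 2 of 3 libraries and -8.81 with equal peak numbers. The zinc finger excess of 24.4 points was 6.53 with equal peak numbers and 8.72 without chromosome 19. The ribosomal protein excess of 35.6 was 9.62 with equal peak numbers, where the raised background bounds both excesses. The cause was not tested.

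Leaving out 1 library at a time gave 2341 to 2646 factor-free peaks, width differences of -568.5 to -536.5 bp, rank differences of -11.1 to -9.39 in GFP cells and -5.31 to -3.12 in MAFG cells, zinc finger excesses of 23.9 to 26.6, ribosomal protein excesses of 32.2 to 37.0 and E-box differences of -5.10 to -4.53 points. The neighbour difference of -1.99 ranged from -2.13 to -1.73, and the differences between lines from -6.17 to -4.70 (anti-MAFG) and -8.70 to -8.47 (anti-MITF). The neighbour differences within chromosomes and apart from factor peaks on H3K4me3, the promoter sequence and family alternatives were added after seeing the data.

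Groups share replicate numbers, but the deviations of libraries with 1 number had correlations from -0.0299 to 0.00828, and no pairing was taken from them. When libraries of 1 number were nevertheless taken as pairs, the mean line differences were -5.25 and -8.56 points, unchanged by construction. The exact sign-flip permutation p was 0.25 each, the smallest 3 pairs allow. Read depth is unknown, so a missing factor peak means only that none passed the authors' limit.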
